A study of Mus musculus with 4 samples.

Results

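The genes described here are 36 members of the tumour necrosis factor (TNF) system in the mouse: 13 ligands of the TNF superfamily, 16 receptors of the TNF receptor superfamily and 7 intracellular adaptors, namely Traf1 to Traf6 and Tradd. They were listed by name and function with earlier results of these data known, with no measured value in the rule, and 35 of the 36 had a probe, among 22911 genes with a probe on the arrays. The ligand Tnfsf13 (APRIL) had none. Transcripts were measured on Agilent 1-colour arrays in cells of wild-type and LysM-St18flox mice that carry the label peritoneal macrophage and the title PEC. Cells came from the peritoneal lavage of mice given 4% thioglycollate for 3 days, were kept in RPMI medium with 10% fetal bovine serum, and were exposed to lipopolysaccharide (LPS), a bacterial product sensed by Toll-like receptor 4, for 0 or 3 hours. The 4 groups were wild-type at 0 h, wild-type at 3 h, LysM-St18flox at 0 h and LysM-St18flox at 3 h, with 1 array each. All 4 groups shared the thioglycollate treatment and the culture medium. No group is labelled as kept for 3 h without LPS, so LPS and time in culture cannot be told apart in the differences with LPS below. As background, the LysM promoter is used to drive Cre recombinase in macrophages and neutrophils, so an allele flanked by lox sites is targeted in those cells. The dose of LPS, the mice's strain, sex and age, whether the wild-type mice carried Cre or the flanked allele, and how many mice gave an array's RNA are not given in the sources used here.

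With 1 array in each group there was no spread between samples, so no test was possible and no p-value is given. Each value below compares 2 arrays, not 2 conditions with replicate error. A level is the normalized log2 signal of a probe, where 0 is the array's own 75th percentile, and levels of different genes are not compared because probes differ in response. A difference of 1 on this scale is 2-fold, the size at which a gene was counted as higher or lower. A gene was called measured in a comparison when its probe was well above background on both arrays. Where only 1 array was above background, the difference is a bound and is written "at least" so many fold. Copies of the same probe printed on 1 array varied with a standard deviation of 0.03 to 0.041 at the median, which covers spot error and not mice, cultures or labelling.

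The TNF superfamily works through ligands that are mostly membrane proteins, some of them shed, and that bind trimeric receptors on the same or neighbouring cells. Receptors without a death domain recruit TRAF proteins, which carry ubiquitin ligases and kinases to the complex and switch on NF-kB and MAP kinases, while death domain receptors use Tradd or Fadd and can also engage caspases. In macrophages TNF is an early product of Toll-like receptor signalling, and several other ligands of the family stimulate T cells that carry the matching receptor.

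The arrays held between 52.2% and 55.6% of spots well above background, and no spot was saturated. All 10 macrophage markers were well above background on every array, among them Csf1r, the receptor for the macrophage growth factor CSF1, at 7.74 to 7.86, and Adgre1 (F4/80) at 6.40 to 6.96. St18, the zinc finger gene altered in the LysM-St18flox mice, was measured in wild-type cells at -0.81 (0 h) and -1.12 (3 h) by 1 of its 2 probes. In LysM-St18flox cells that probe was not well above background, and the bounds were at least 7.12-fold (0 h) and at least 8.48-fold (3 h) in the lower direction. The labels do not say where the probe lies relative to the altered sequence. Markers of other cells differed between the genotypes as well, and their values stand beside the genotype differences.

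LPS for 3 h was accompanied by higher transcript of many members and of none at least 2-fold lower. In wild-type cells 11 of the 27 measured members were at least 2-fold higher, against 9.46% of all measured genes. No measured member was at least 2-fold lower, against 10.9% of all measured genes. In LysM-St18flox cells 10 of 28 measured members were higher, against 8.59% of all genes, and none of the 28 was lower, against 8.11%. Counting bounds as well, 16 of 33 members were higher in wild-type cells (all genes 11.0%) and 15 of 34 in LysM-St18flox cells (all genes 9.81%), and none was lower (all genes 12.4% and 9.79%). At a threshold of 1.5-fold, 15 measured members were higher and 3 lower in wild-type cells, against 17.7% and 23.7% of all genes. In LysM-St18flox cells 15 were higher and 3 lower at 1.5-fold, against 14.9% and 19.1%. The median difference over measured members was 0.64 in wild-type and 0.71 in LysM-St18flox cells, against -0.07 and -0.05 over all genes. The choice of scaling touched the lower side: with quantile normalization the wild-type counts were 10 higher and 2 lower. No array is shared by the LPS responses of wild-type and LysM-St18flox cells, and 14 of 33 members measured or bounded in both were higher in both, against 7.19% of all such genes. The 14 include Lta, Tnfsf4, Tnfsf10 and Tnfrsf9, which were above background only at 3 h and so could not be counted as lower. They also include Tnfrsf14, which entered this count and the 16 of 33 by a wild-type ratio to an undetected 0 h signal. Of the 27 members measured on all 4 arrays 9 were higher in both, against 6.47% of all genes.

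**Figure D1:**
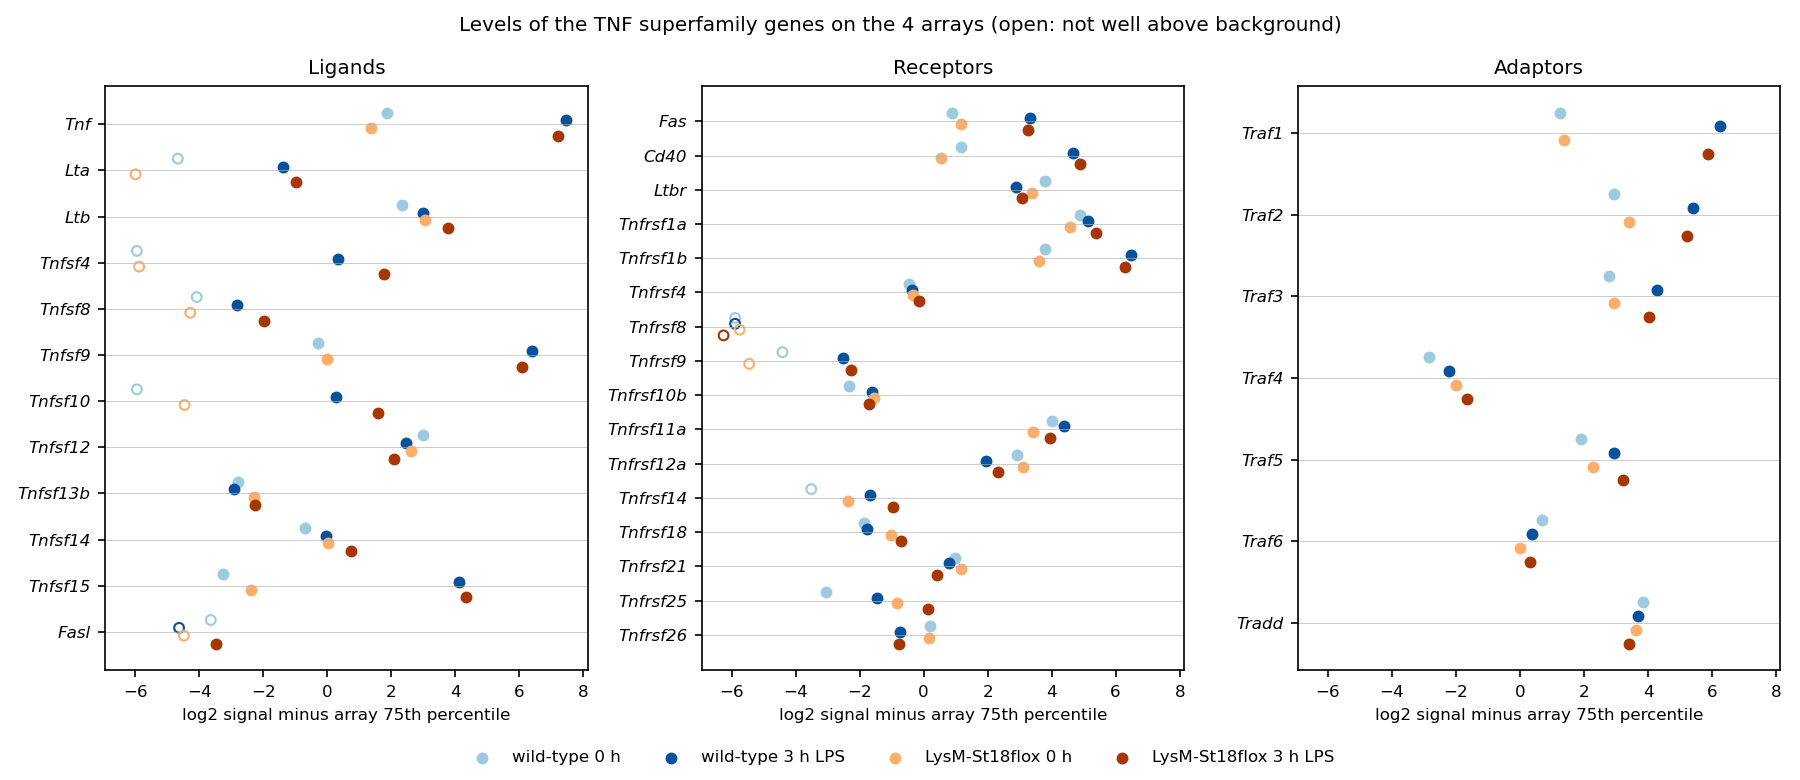
Normalized log2 signal (horizontal axis, 0 is the array's 75th percentile) of 35 members in panels for ligands, receptors and adaptors, with 1 marker for each of the 4 arrays; open markers are not well above background. Tnf, Tnfsf9, Tnfsf15 and Traf1 show the 3 h arrays well above the 0 h arrays in both genotypes, and Tnfrsf8 has open markers on every array.

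Among the ligands, 3 of 7 measured members were at least 2-fold higher after LPS in each genotype, and they were the same genes: Tnf, Tnfsf9 and Tnfsf15. Tnf, the founding cytokine of the family, stood at 1.87 in wild-type cells at 0 h, 7.45 in wild-type cells at 3 h, 1.35 in LysM-St18flox cells at 0 h and 7.21 in LysM-St18flox cells at 3 h. Both arrays with LPS lay far above both without it, 47.8-fold in wild-type and 58.1-fold in LysM-St18flox cells. A second probe of Tnf gave log2 differences of 5.79 and 5.89. Tnfsf9 encodes 4-1BB ligand, a costimulator of T cells. In the same order of arrays its levels were -0.29, 6.39, -0.01 and 6.09, which is 103-fold higher with LPS in wild-type and 68.5-fold in LysM-St18flox cells. The 2 unstimulated arrays were close to each other, as were the 2 stimulated arrays.

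Tnfsf15 (TL1A), the ligand of death receptor 3, had the largest measured difference of any member in both genotypes, except that with normexp correction Tnfsf9 was ahead in wild-type cells, at 6.49 against 6.03. Its levels were -3.26, 4.12, -2.39 and 4.32, so that both unstimulated arrays lay near the background limit and both stimulated arrays far above it. The difference was 166-fold in wild-type and 105-fold in LysM-St18flox cells. Across settings the log2 difference of Tnfsf15 ran from 6.03 to 7.41 in wild-type cells. The other probe of Tnfsf15 was not well above background at 0 h and stood at 3.83 and 3.96 at 3 h.

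A further group of ligands was well above background only after LPS in both genotypes: Lta, Tnfsf4, Tnfsf8 and Tnfsf10. Tnfsf4 (OX40 ligand), which costimulates T cells, was within background at 0 h, at -5.95 in wild-type and -5.88 in LysM-St18flox cells, and stood at 0.34 and 1.78 at 3 h, at least 15.8-fold and at least 42.9-fold higher. Tnfsf10 (TRAIL), a death ligand, was likewise within background at 0 h, at -5.95 and -4.46, and stood at 0.27 and 1.58 at 3 h, at least 15.0-fold and at least 37.2-fold higher. For both genes the LysM-St18flox array with LPS was the brightest of the 4. Lta (lymphotoxin alpha) stood at -1.37 and -0.98 at 3 h, at least 4.82-fold and at least 6.31-fold higher. Tnfsf8 (CD30 ligand) stood at -2.82 and -1.99, at least 1.77-fold and at least 3.14-fold higher, so only the LysM-St18flox value passed 2-fold. Fasl, the ligand of Fas, was well above background only on the LysM-St18flox array at 3 h, at -3.48, close to the background limit.

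The other measured ligands differed by less than 2-fold with LPS. Ltb, which forms the membrane lymphotoxin complex with Lta, had levels of 2.34, 2.99, 3.04 and 3.76, 1.56-fold higher with LPS in wild-type and 1.64-fold in LysM-St18flox cells. Tnfsf14 (LIGHT) had levels of -0.70, -0.04, 0.02 and 0.73, and log2 differences of 0.65 and 0.71. In Ltb and Tnfsf14 alike, the unstimulated LysM-St18flox array was about level with the stimulated wild-type array. Tnfsf12 (TWEAK) was the only measured ligand with a lower signal after LPS in both genotypes, with differences of -0.54 and -0.55. Tnfsf13b (BAFF), a B cell survival factor, differed by -0.14 and 0.05.

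Tnf, Lta and Ltb are neighbouring genes on chromosome 17, with Tnf between the others. With LPS the difference was large in Tnf and less than 2-fold in Ltb. Lta had only a lower bound, so its difference cannot be ranked against that of Tnf. The 250 bases upstream of the start of each of these genes are printed 5′ to 3′ on the gene's own strand, from RefSeq on GRCm38.p6. Whether these sequences bear on the LPS values was not tested. Upstream windows of Tnfrsf9, a receptor gene higher after LPS in both genotypes, and of the adaptor gene Traf3 follow, since they carry the NF-kB consensus. Tnfrsf8 and Tnfrsf25, not among the members higher in both genotypes, also have a window that carries it, not printed here. Capitals mark the letters TATAAA, at -29 to -24 from the start in Tnf and at -167 to -162 in Lta, and the NF-kB consensus in Ltb, Tnfrsf9 and Traf3. The windows are chr17:35202008-35202257 (minus strand) for Tnf, chr17:35205352-35205601 (minus) for Lta, chr17:35194257-35194506 (plus) for Ltb, chr4:150927749-150927998 (plus) for Tnfrsf9 and chr12:111166120-111166369 (plus) for Traf3.
Tnf: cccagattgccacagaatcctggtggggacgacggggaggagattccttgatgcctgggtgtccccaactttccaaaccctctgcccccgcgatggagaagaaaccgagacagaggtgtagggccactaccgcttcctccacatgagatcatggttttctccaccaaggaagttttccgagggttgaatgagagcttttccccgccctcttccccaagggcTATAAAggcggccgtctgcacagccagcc
Lta: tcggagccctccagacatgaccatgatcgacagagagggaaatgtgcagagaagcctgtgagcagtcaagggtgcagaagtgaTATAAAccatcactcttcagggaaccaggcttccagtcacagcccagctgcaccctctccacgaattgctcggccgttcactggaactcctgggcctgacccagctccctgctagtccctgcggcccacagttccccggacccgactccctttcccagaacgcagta
Ltb: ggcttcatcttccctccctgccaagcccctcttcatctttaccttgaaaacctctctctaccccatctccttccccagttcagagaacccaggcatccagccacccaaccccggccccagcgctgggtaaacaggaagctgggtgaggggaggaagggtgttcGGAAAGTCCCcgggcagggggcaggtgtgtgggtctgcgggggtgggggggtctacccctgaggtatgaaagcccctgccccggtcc
Tnfrsf9: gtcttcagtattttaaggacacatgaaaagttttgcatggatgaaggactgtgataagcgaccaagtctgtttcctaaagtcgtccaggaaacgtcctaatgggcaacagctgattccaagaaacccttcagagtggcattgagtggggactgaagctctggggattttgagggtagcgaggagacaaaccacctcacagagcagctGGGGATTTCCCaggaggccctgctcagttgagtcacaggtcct
Traf3: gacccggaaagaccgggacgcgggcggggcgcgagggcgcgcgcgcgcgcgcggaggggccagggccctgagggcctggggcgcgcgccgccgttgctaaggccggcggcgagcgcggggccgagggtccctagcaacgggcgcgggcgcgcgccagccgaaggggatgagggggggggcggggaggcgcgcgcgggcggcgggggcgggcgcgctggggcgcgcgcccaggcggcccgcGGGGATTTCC

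Windows were found for 29 members, 3 of them with more than 1 start, giving 32 windows of 250 bases. Searched on both strands, the NF-kB consensus was present in 5 of the 32 windows (15.6%), against 7.25% of 32851 windows of all genes. The AP-1 motif TGANTCA was present in 6 (18.8%, against 6.75%), and TATAAA in 2 (6.25%, against 12.4%), those of Tnf and Lta. Of the members higher in both genotypes, 11 of 14 had a window, and 2 of these (18.2%) held the NF-kB consensus, Tnfrsf9 and Traf3. Among the 18 other members with a window, 3 (16.7%) held it, namely Ltb, Tnfrsf8 and Tnfrsf25. Tnfrsf9 has a match in 1 of its windows, the printed one, where 2 overlapping matches make up the run in capitals. A match says only that the letters are present, and no binding was measured here. The lack of a match in 250 bases, as in Tnf, does not show that a gene has no NF-kB site.

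Among the receptors, Cd40, Tnfrsf1b and Fas were at least 2-fold higher with LPS in both genotypes. Cd40, which binds CD40 ligand on activated T cells, had levels of 1.16, 4.68, 0.55 and 4.88. The log2 difference was 3.52 in wild-type and 4.32 in LysM-St18flox cells. Tnfrsf1b (TNFR2), the TNF receptor without a death domain, had levels of 3.78, 6.47, 3.62 and 6.28, a difference of 6.44-fold and 6.32-fold. The genotypes were nearly superposed at each time for this gene. Fas, a death receptor, had levels of 0.88, 3.32, 1.18 and 3.27, 5.42-fold and 4.25-fold higher, and its other probe gave log2 differences of 2.84 and 2.49. Tnfrsf9 (4-1BB), the receptor of the Tnfsf9 product, was above background only after LPS, at -2.51 and -2.27, at least 2.19-fold and at least 2.58-fold higher. These bounds are those of its brighter probe. The other probe was also above background only after LPS, at -3.43 and -3.72, close to the 0 h background limit of -3.64.

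Tnfrsf25 and Tnfrsf14 were near the threshold or depended on the probe. Tnfrsf25 (death receptor 3) had levels of -3.05, -1.45, -0.84 and 0.15, 3.03-fold higher with LPS in wild-type and 1.98-fold in LysM-St18flox cells. Both LysM-St18flox arrays lay above both wild-type arrays. After normexp background correction its log2 differences with LPS were 0.88 and 0.81, under 2-fold in both. Tnfrsf14 (HVEM), a receptor of LIGHT, was not above background in wild-type cells at 0 h and stood at -1.67, -2.37 and -0.95 on the other arrays in the same order. The resulting fold was at least 3.56 in wild-type and 2.67 in LysM-St18flox cells. The first was taken against the undetected 0 h signal itself, at -3.51, so it is a ratio to background and not a firm bound. The other probe of Tnfrsf14 was measured on all 4 arrays and gave 0.10 and 0.26, so the probes disagree about this gene. Across settings its LysM-St18flox difference ran from 0.45 to 1.61.

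The remaining receptors differed by less than 2-fold with LPS or were dim. Tnfrsf1a (TNFR1), the death domain receptor of TNF, had levels of 4.87, 5.15, 4.57 and 5.37, with differences of 0.29 and 0.79, the first of which was -0.05 with quantile normalization or in the deposited value table. Tnfrsf12a, the TWEAK receptor, and Tnfrsf26 sat just inside the threshold on the lower side, at -0.97 and -0.79 and at -0.96 and -0.93. Ltbr, the lymphotoxin beta receptor, stood at 3.79, 2.90, 3.39 and 3.07, a difference of -0.89 in wild-type and -0.33 in LysM-St18flox cells. In wild-type cells some settings put these receptors past 2-fold lower. Tnfrsf12a and Ltbr were at -1.09 and -1.10 with quantile normalization and at -1.08 and -1.10 in the deposited value table. Tnfrsf26 was at -1.02 with normexp correction. Tnfrsf11a (RANK), the osteoclast receptor, differed by 0.38 and 0.52 and Tnfrsf21 (death receptor 6) by -0.19 and -0.77. Tnfrsf4 (OX40) differed by 0.11 and 0.17 and Tnfrsf18 (GITR) by 0.10 and 0.32, both receptors best known from T cells. Tnfrsf10b, the mouse TRAIL receptor, differed by 0.72 in wild-type and -0.17 in LysM-St18flox cells. The value of Tnfrsf10b in LysM-St18flox cells was 0.02 when arrays were scaled by the median, and that of Tnfrsf18 in wild-type cells was -0.07 with normexp correction. Tnfrsf8 (CD30) was within background on all 4 arrays.

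Among the adaptors, Traf1, Traf2 and Traf3 were at least 2-fold higher with LPS in both genotypes. Traf1, an adaptor without the RING domain of other TRAFs and a known NF-kB target, had levels of 1.24, 6.26, 1.37 and 5.89, 32.5-fold and 23.0-fold higher. Its stimulated arrays lay far above its unstimulated arrays, as for the ligands Tnf and Tnfsf9. Traf2, the main adaptor of TNFR1 and TNFR2 signalling, had levels of 2.95, 5.41, 3.40 and 5.21, 5.53-fold and 3.50-fold higher, and its other probe gave 2.58 and 1.81 (log2). Traf3, which restrains the noncanonical NF-kB pathway, had levels of 2.79, 4.27, 2.95 and 4.03, 2.79-fold and 2.12-fold higher. The other probe of Traf3 gave smaller log2 differences of 0.76 and 0.83, and across settings the LysM-St18flox difference of Traf3 ran from 0.84 to 1.27.

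Traf5 lay at the threshold, with levels of 1.91, 2.95, 2.29 and 3.21 and differences of 2.05-fold and 1.90-fold, and across settings its wild-type log2 difference ran from 0.93 to 1.07. Traf4 differed by 0.62 and 0.35. Traf6, the adaptor shared by CD40 and the Toll-like receptors, differed by -0.29 in wild-type and 0.31 in LysM-St18flox cells by its brighter probe while its other probe gave 1.10 and 1.27, so its probes disagree in direction in wild-type cells, where the mean of both probes was 0.41. Tradd, the death domain adaptor of TNFR1, differed by -0.13 and -0.23. Over the measured adaptors the median difference was 1.04 in wild-type and 0.93 in LysM-St18flox cells, over ligands 0.65 and 0.72, and over receptors 0.29 and 0.42.

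**Figure D2:**
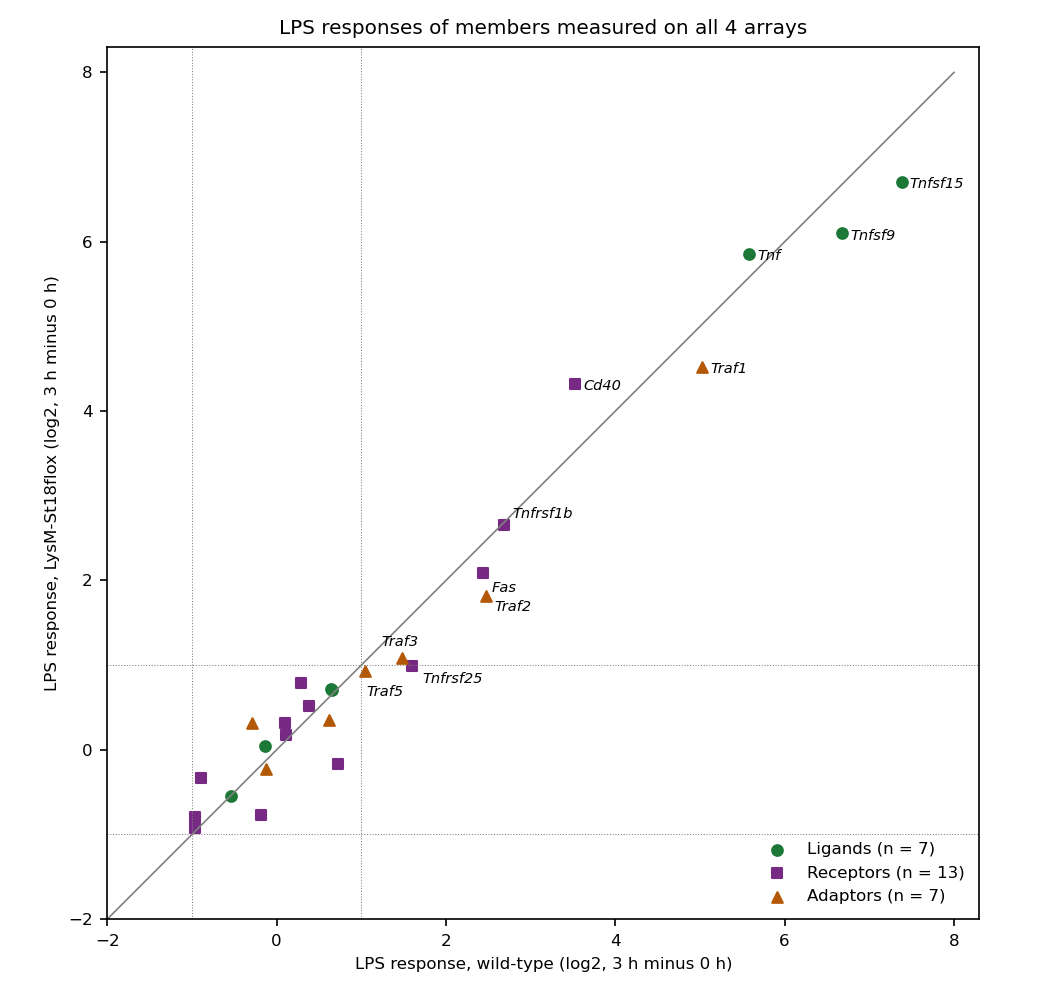
LPS response of the 27 members measured on all 4 arrays, as log2 difference of 3 h minus 0 h in wild-type (horizontal) and LysM-St18flox cells (vertical), by role; the solid line marks equal responses and dotted lines mark 2-fold. Tnfsf15, Tnfsf9, Tnf, Traf1 and Cd40 lie farthest up, and no member passes 2-fold on the lower side in either genotype.

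Partners of a ligand and receptor pair were not always both higher. The counts here cover 12 known ligand and receptor pairs among the members and not every such pair. Lta, itself higher in both genotypes, is in none of them. Both partners were at least 2-fold higher with LPS in 3 pairs in wild-type cells and in 2 in LysM-St18flox cells, bounds included. Of all single genes, bounds included, 11.0% were higher in wild-type and 9.81% in LysM-St18flox cells. The pairs with both partners higher in both genotypes were Tnf with Tnfrsf1b and Tnfsf9 with Tnfrsf9, where Tnfrsf9 passed by a bound of its brighter probe. Tnfsf15 with Tnfrsf25 was such a pair in wild-type cells, where Tnfrsf25 was 3.03-fold higher against 1.98-fold in LysM-St18flox cells. The ligand alone passed 2-fold in 3 pairs in wild-type and 5 in LysM-St18flox cells. These included Tnf with Tnfrsf1a, Tnfsf4 with Tnfrsf4 and Tnfsf10 with Tnfrsf10b in both genotypes. The receptor alone passed in 2 pairs in each genotype, Fas with Fasl and Tnfrsf14 with Tnfsf14, the latter by the brighter probe only.

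Some members that lie next to each other in the genome differed in their values with LPS, and others were alike. On chromosome 4, Tnfsf15 and Tnfsf8 are adjacent genes, and the first differed by 7.38 and 6.71. The second was dim and above background only at 3 h, at least 1.77-fold higher in wild-type and at least 3.14-fold in LysM-St18flox cells. Tnfrsf1b and Tnfrsf8 are adjacent on the same chromosome, and the first differed by 2.69 and 2.66 while the second was not above background on any array. Ltbr and Tnfrsf1a on chromosome 6 have 1 gene between them and differed by -0.89 and 0.29 in wild-type cells. Tnfsf9 and Tnfsf14 on chromosome 17, also with 1 gene between them, differed by 6.68 and 0.65. Tnfrsf4 and Tnfrsf18, adjacent on chromosome 4, were alike, at 0.11 and 0.10 in wild-type and 0.17 and 0.32 in LysM-St18flox cells.

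The signalling genes around the members were described through 8 lists of 81 genes, all with a probe. With LPS, 30 of the 71 measured in wild-type cells were higher by 2-fold or more and 5 were lower, beside 9.46% and 10.9% of all measured genes. In LysM-St18flox cells 29 of 71 were higher and 5 lower, beside 8.59% and 8.11%. The NF-kB subunits and inhibitors had the highest count, 10 of 10 in each genotype, with medians of 3.08 and 2.90. In this list Nfkbiz, a nuclear IkB protein induced by Toll-like receptors, differed by 5.91 and 5.89, and Nfkbie, an IkB inhibitor, by 3.95 and 3.60. Nfkb1, the p105 and p50 subunit gene, differed by 4.00 and 2.70, and Bcl3 by 3.97 and 3.10.

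Genes that edit ubiquitin in TNF receptor complexes were at least 2-fold higher in 4 of 14 in wild-type and 5 of 14 in LysM-St18flox cells, with none lower. They included Tnfaip3 (A20), which removes ubiquitin chains from the complex, at 4.03 and 3.99, and its partners Tnip3 at 5.02 and 4.56, Tnip1 at 3.86 and 3.15 and Tnip2 at 1.38 and 1.27. Rnf31 (HOIP), the catalytic subunit of the linear ubiquitin ligase, differed by -0.31 in wild-type and 1.74 in LysM-St18flox cells. In the receptor complex and cell death list 5 of 13 genes were higher and 1 lower in wild-type cells, and 6 of 13 higher and 1 lower in LysM-St18flox cells. Cflar (c-FLIP), an inhibitor of caspase-8, differed by 2.66 and 3.62, Birc3 (cIAP2) by 2.37 and 1.97, Daxx by 2.73 and 3.15 and Mlkl, the effector of necroptosis, by 2.29 and 2.55. The gene with a lower signal, named after its values were seen, was Tnfaip8l2, at -2.17 and -1.96.

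In the kinase list 5 of 14 genes were higher by 2-fold or more and 2 lower in wild-type cells, and 3 of 14 higher and 2 lower in LysM-St18flox cells. Map3k8 (TPL2), which activates ERK in macrophages, differed by 2.74 and 2.73 and Ikbke by 1.58 and 1.81. Tab2 was 3.29-fold higher in wild-type and 2.83-fold in LysM-St18flox cells. Those lower were Map3k14 (NIK), the kinase of the noncanonical NF-kB pathway, at -1.87 and -1.94, and Tab1 at -1.58 and -1.69. Of the TRAF-related genes 2 of 7 were higher in wild-type and 3 of 7 in LysM-St18flox cells, with Traf3ip2 at 2.27 and 2.30, Tank at 1.62 and 1.81 and Tifa at 0.68 and 1.09. In each genotype 1 of these 7 was lower, Traf3ip1 at -1.01 and -1.11. Genes of ligand and receptor shedding were higher in 3 of 6 and 2 of 6, with the iRhom genes Rhbdf1 at 2.52 and 1.92 and Rhbdf2 at 1.69 and 2.23, and Adam17, the TNF-releasing protease, at 1.15 and 0.79. Of the other ligands, Cd70 alone was above background, and only after LPS, at least 3.73-fold and at least 4.80-fold higher. Of 7 other receptors measured in wild-type cells 1 was higher, the decoy receptor gene Tnfrsf11b at 2.83-fold, and 1 lower, Relt at -1.61. In LysM-St18flox cells none of the 7 measured was higher and 1 was lower, while Tnfrsf11b had a bound of 2.98 (log2).

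**Figure D3:**
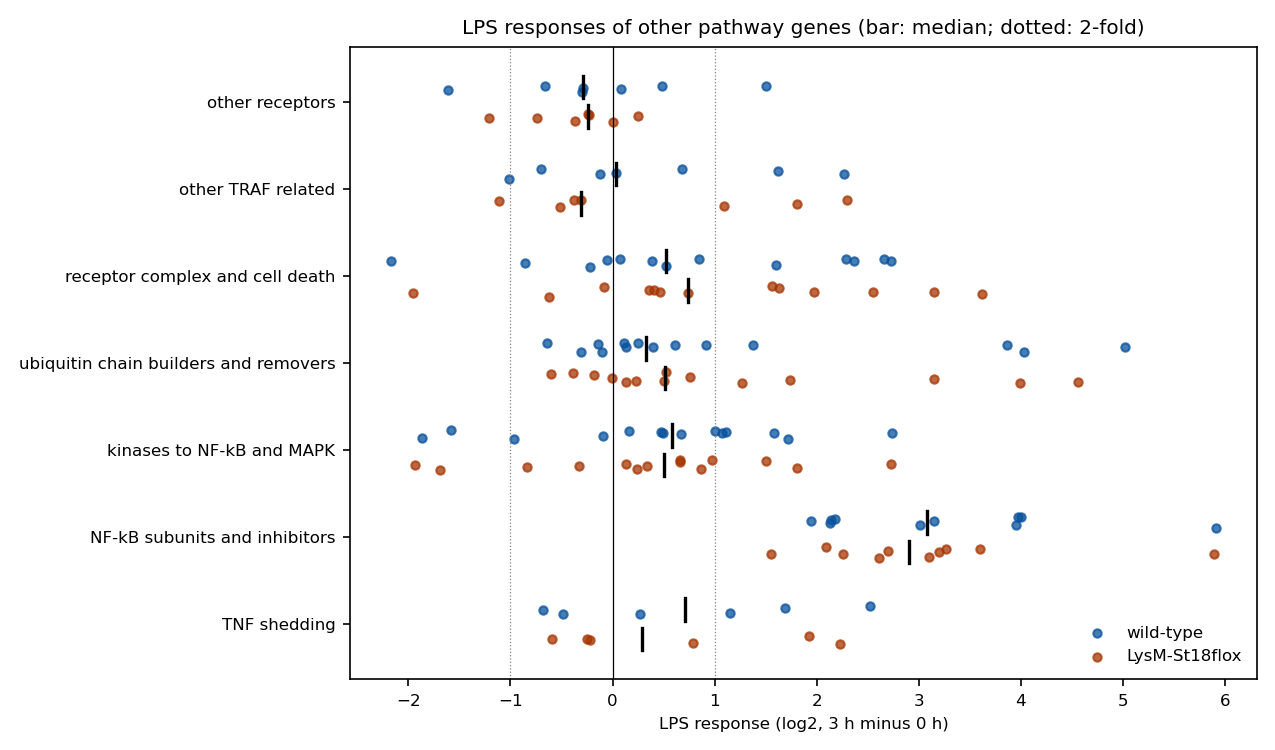
Log2 difference with LPS (3 h minus 0 h) of the measured genes of the lists around the members, leaving out the list of other ligands, which had no measured gene, with 1 point per gene for each genotype and a bar at the list's median; dotted lines mark 2-fold. The NF-kB list lies wholly above 2-fold in both genotypes, with medians of 3.08 and 2.90.

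The LPS responses of the genotypes could be set against each other for the 27 members measured on all 4 arrays, which leaves out the ligands seen only after LPS. Of these 27 members, 0 had responses that differed by 2-fold or more, against 5.37% of all genes measured on all 4 arrays, so this count is near the background share. The difference of the responses, LysM-St18flox minus wild-type, ran from -0.89 (Tnfrsf10b) to 0.80 (Cd40), with a median of -0.01 against 0.04 over all genes. It was above 0 in 13 members and below 0 in 14. For Tnf it was 0.28, for Tnfsf9 -0.58, for Tnfsf15 -0.67, for Traf1 -0.50 and for Traf2 -0.66. These responses share arrays with the genotype differences below, so the sets of values are not independent.

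Between the genotypes, few members were 2-fold apart. At 0 h 1 of 27 measured members was at least 2-fold higher, against 2.98% of all genes, and 0 were lower, against 3.15%. Both counts at 0 h were thus near the share over all genes. At 3 h 4 of 33 were higher, against 1.81% of all genes, and 0 were lower, against 1.40%. The lower count at 3 h was also near that share. The median genotype difference over measured members was 0.19 at 0 h and 0.20 at 3 h, against -0.04 and -0.01 over all genes. The 2 genotype differences share no array. Of 27 members measured in both, 10 were above 0 at both times, 7 below 0 at both times and 10 of opposite sign.

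At 3 h the members 2-fold apart were Tnfsf4, Tnfsf10, Tnfrsf18 and Tnfrsf25. Tnfsf4 stood at 0.34 in wild-type and 1.78 in LysM-St18flox cells, 2.71-fold higher in the latter. Tnfsf10 stood at 0.27 and 1.58, 2.48-fold higher. Neither ligand was above background at 0 h in either genotype, so their genotype difference was measurable only after LPS. Tnfrsf18 (GITR) had levels of -1.87, -1.77, -1.03 and -0.71, 2.09-fold higher at 3 h and 0.84 (log2) higher at 0 h. Across settings its 3 h difference ran from 0.82 to 1.09, on both sides of 2-fold.

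Tnfrsf25 was the member 2-fold apart at both times, 4.65-fold higher at 0 h and 3.04-fold higher at 3 h in LysM-St18flox cells. Its wild-type signal at 0 h, -3.05, was near the background limit, and after normexp correction the 0 h difference was 1.35 (log2). Tnfrsf14 was at least 2.21-fold higher at 0 h by its brighter probe, taken against the undetected wild-type signal itself, while its other probe gave -0.23. With this bound counted, 2 of 28 members were higher (all genes 4.90% higher and 4.42% lower). At 3 h no bound passed 2-fold (all genes 3.08% and 3.15%). At 1.5-fold, 7 members were higher and 3 lower at 0 h, against 8.19% and 12.9% of all genes, and 10 were higher and 0 lower at 3 h, against 5.08% and 3.80%. No member with a measured value was at least 2-fold lower at either time. Among those lower in LysM-St18flox cells at both times by less than 2-fold were Tnf, at -0.51 and -0.23, Tnfrsf11a, at -0.61 and -0.46, and Tnfsf12, at -0.37 and -0.38. Ltb, at 0.70 and 0.78, and Tnfsf14, at 0.72 and 0.78, were higher at both times by like amounts.

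**Figure D4:**
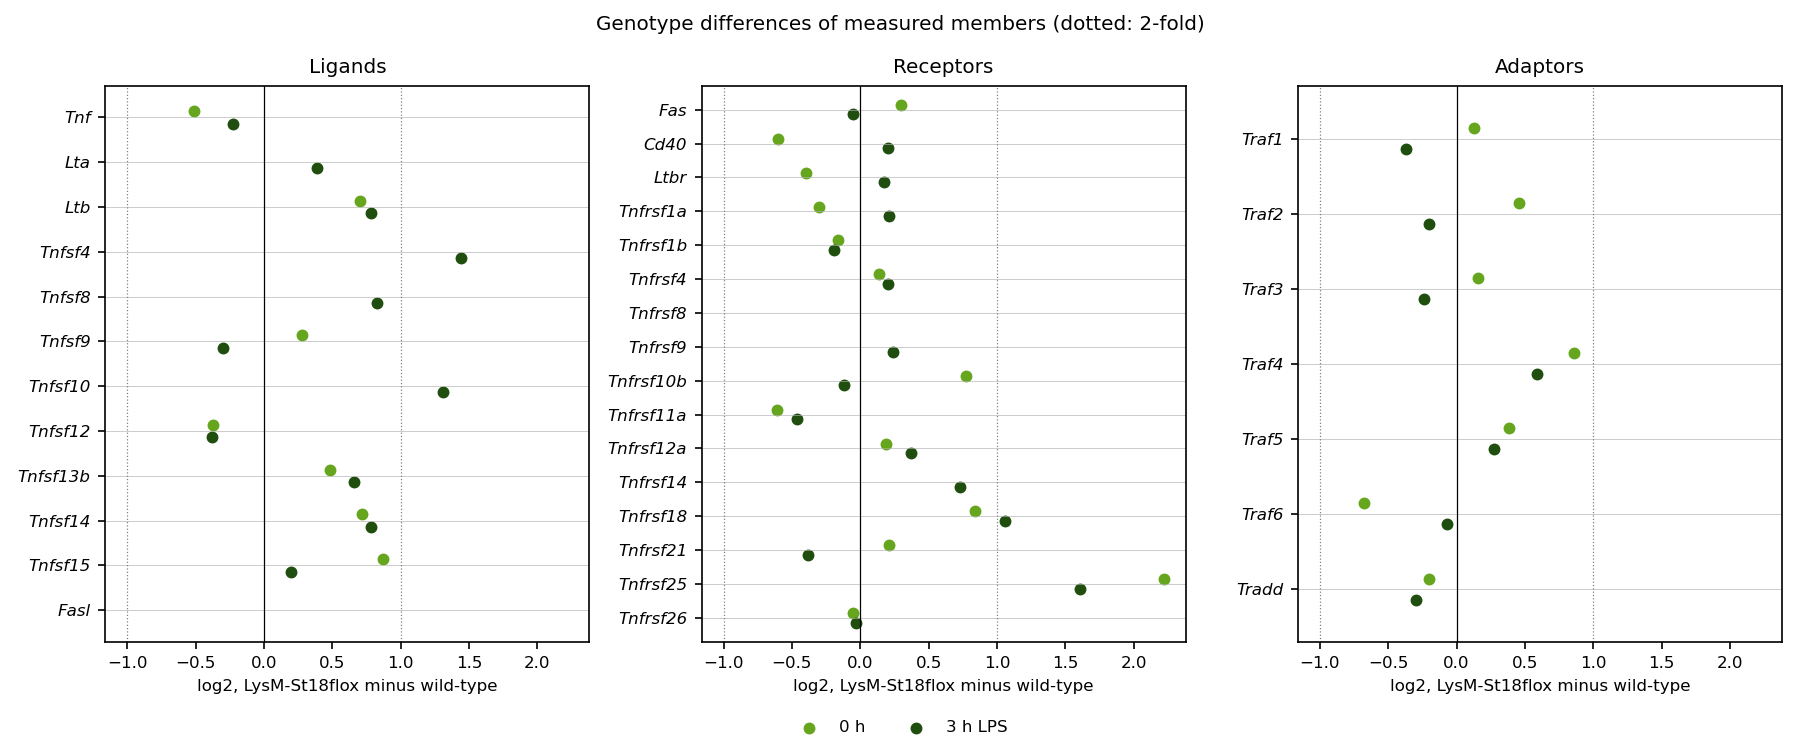
Genotype difference (log2, LysM-St18flox minus wild-type) of each member at 0 h and 3 h, by role; dotted lines mark 2-fold and members without a point at a time were not measured there. Tnfrsf25 lies beyond 2-fold at both times, and Tnfsf4, Tnfsf10 and Tnfrsf18 at 3 h.

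Markers of other cells moved with genotype, and since the arrays measured bulk RNA, fewer cells of a type and less RNA per cell cannot be told apart. Of the 12 B cell markers, 10 were above background on each wild-type array and 12 on each LysM-St18flox array, with summed signals of 10.1, 8.01, 41.7 and 36.5 in the order of arrays used above (the array's 75th percentile is 1). In LysM-St18flox cells 8 of the 10 measured were higher by 2-fold or more at 0 h and 7 of 10 at 3 h, with medians of 2.42 and 2.61. Of the T and NK cell markers 6 of 10 were higher at 0 h and 6 of 12 at 3 h, with medians of 1.20 and 0.95 and summed signals of 76.3, 64.3, 92.1 and 72.1. Most of that sum was Il7r, and without it the sums were 7.06, 12.9, 16.9 and 19.8. Of the 14 markers 10 were above background on every array, among them Cd3e, Cd3d, Cd2, Cd5, Lck and Thy1, and 2, Cd8a and Ncr1, on none. Cd3d was 2.76-fold and 2.58-fold higher in LysM-St18flox cells at 0 h and 3 h, and Cd2 was 3.31-fold and 3.03-fold higher. Cd3e, in contrast, differed by only -0.18 and -0.10 (log2). The difference was above 0 in 9 of the 10 measured markers at 0 h and in 9 of the 12 at 3 h. Tnfrsf25, Tnfrsf18 and Ltb are known from lymphocytes, and the part of these cells in the members' genotype differences was not tested.

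Markers of the other lists moved too. The 3 measured erythroid markers were higher at both times, with medians of 2.78 and 3.27. Large peritoneal macrophage markers were higher in 5 of 9 and 4 of 10, mast cell markers in 3 of 7 and 4 of 6, eosinophil markers in 3 of 6 and 1 of 6, and dendritic cell markers in 1 of 5 and 0 of 8. Mesothelial and fibroblast markers were lower in 6 of 9 at 0 h and 8 of 10 at 3 h, with medians of -1.11 and -1.53, and neutrophil markers were lower in 4 of 10 and 3 of 9, with 1 higher at 3 h, Retnlg at 1.11. Of the 10 macrophage markers 1 was higher by 2-fold or more at 0 h, Lyz2, the LysM gene itself, at 2.28-fold, and 0 at 3 h, with list medians of -0.26 and -0.08.

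In the genes around the members, some genotype differences reached 2-fold. At 0 h 2 of 70 measured genes were higher, against 2.98% of all genes, and 0 lower, against 3.15%. The higher count at 0 h was thus near the share over all genes. At 3 h 4 of 73 were higher, against 1.81% of all genes, and 1 lower, against 1.40%. Tnfrsf13c, the BAFF receptor of B cells, was 2.21 and 2.50 (log2) higher in LysM-St18flox cells, beside the B cell markers above. Nfkb1 was 1.19 higher at 0 h and Rnf31 was 1.32 higher at 3 h. Timp3, an inhibitor of Adam17, differed by -1.21 at 3 h, beside the mesothelial and fibroblast markers. The part of these cells in the values was not tested.

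A second probe allowed a check within the arrays for 13 members, while 22 had 1 probe. In the wild-type LPS response 9 members had both probes measured, 8 with the same sign and 7 on the same side of 2-fold, and the median gap between probes was 0.37. In the LysM-St18flox LPS response 10 members had both, 10 with the same sign and 7 on the same side of 2-fold, with a median gap of 0.22. For the genotype differences the same sign was found in 6 of 9 members at 0 h and 9 of 12 at 3 h, with median gaps of 0.47 and 0.12. The median gap was wider in both comparisons that use the wild-type 0 h array. At 0 h the probes of Tnfrsf1a gave genotype differences of -0.30 and 0.95, the widest apart of the members checked in the genotype comparisons.

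**Figure D5:**
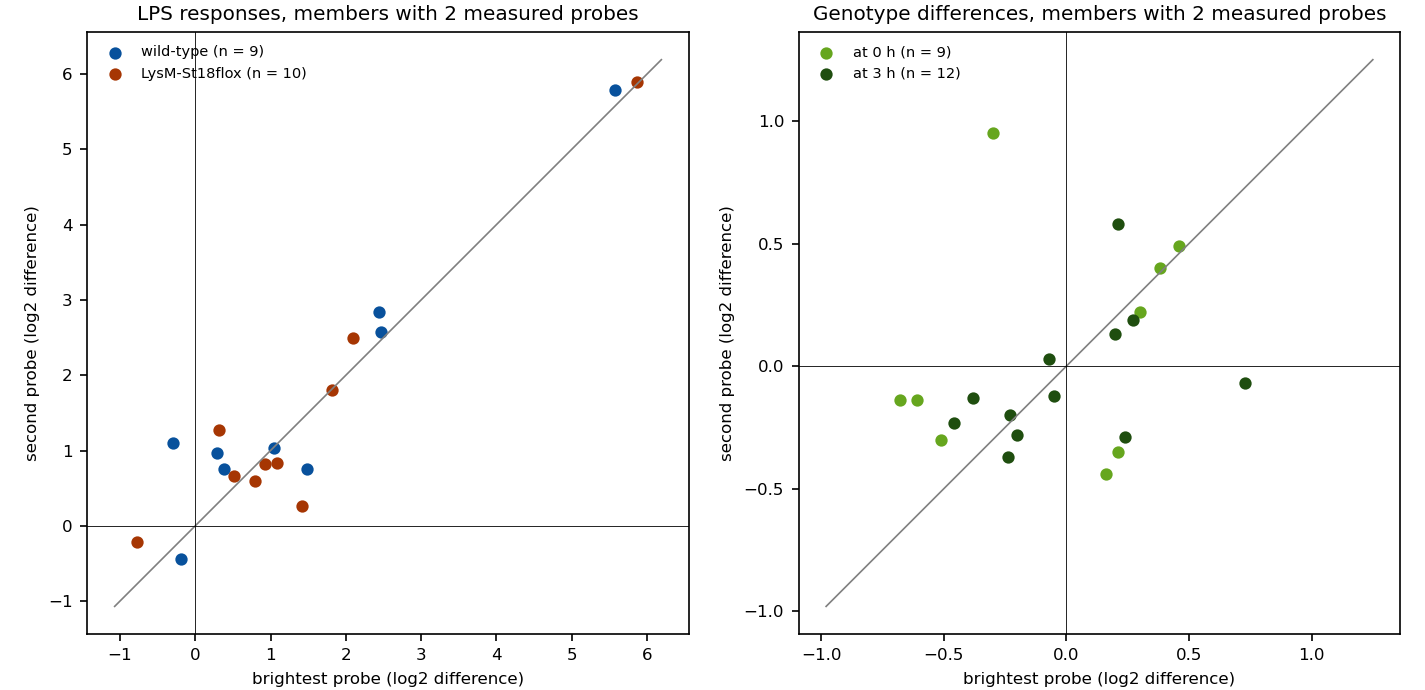
Log2 difference by the brighter probe (horizontal) and the other probe (vertical) of members with both probes measured, with LPS responses on the left, genotype differences on the right and 1 colour for each of the 4 comparisons; the line marks equal values. In the LPS responses the pair for Tnf in wild-type cells, 5.58 and 5.79, lies near the line, and that for Traf6, -0.29 and 1.10, lies away from it.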

How the data were processed

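The deposited spot values are background-subtracted intensity signals of Agilent 1-colour arrays, made by the authors with the software Agilent Feature Extraction (version 11.0.1.1), per the submitters' processing notes, with no normalization between arrays per the file headers. The deposited value table holds log2 values of 25482 probes (column median 9.58), with a normalization that the sources used here do not state. Its 4 sorted columns differed by at most 0.0004, and it was used as an alternative.

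Control and outlier-flagged spots were left out, spots of a probe were averaged as log2 and the array's 75th percentile over probes was subtracted (474 to 758 on the signal scale). Each gene was represented by its brightest probe. A bound set the bright array's value against the dim array's, taking there the lowest value well above background where the dim probe lay below it. Probes were named through RefSeq accessions of GRCm38.p6, which gave 32994 of 56605 probes a symbol. The file headers name another build, so that table served for names, gene order and promoters only.

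The groups came from the sample labels. Members, lists and ligand and receptor pairs were chosen with earlier results of these data known. All members could be named, and of other lists the 4 genes with the largest difference in a comparison. Csf1r, Adgre1, Cd8a, Ncr1, Il7r, Cd3e, Lck, Thy1 and Tnfaip8l2 fall outside this rule and were named after their values were seen. The calculations, quantile normalization among them, used Python 3.11.15, numpy 2.4.6 and pandas 2.3.3. R 4.3.3 and limma 3.58.1 served for the normexp alternative, on median spot signals with an offset of 50. The comparison script was tested on simulated data, copies of a single array with small noise and added changes larger than the threshold in genes above background. This checked the arithmetic and not dim probes, bounds or variation between samples. Other alternatives were scaling by the median, no filter or a stricter filter on dim probes, a 1.5-fold threshold, another rule for probes of a gene and the percentile over spots, the last chosen after seeing the data.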

Additional observations from a re-analysis of the deposited data

Results flagged for a closer look

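Some members had values of opposite sign in groups set under the same contrast, each larger than the limit of 0.115 (log2) set from spot error. With 1 array per group none of these differences was tested.

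With LPS, Tnfrsf10b differed by 0.72 in wild-type and by -0.17 in LysM-St18flox cells, and Traf6 by -0.29 and 0.31. The other probe of Traf6 gave 1.10 and 1.27, without a change of sign, and Tnfrsf10b in LysM-St18flox cells was at 0.02 when arrays were scaled by the median.

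Between the genotypes (LysM-St18flox minus wild-type), 9 members had opposite signs at 0 h and 3 h. Higher at 0 h and lower at 3 h were Tnfsf9 at 0.28 and -0.30, Tnfrsf10b at 0.77 and -0.12, Tnfrsf21 at 0.21 and -0.38, Traf1 at 0.13 and -0.37, Traf2 at 0.46 and -0.20, and Traf3 at 0.16 and -0.24. Lower at 0 h and higher at 3 h were Cd40 at -0.60 and 0.20, Ltbr at -0.40 and 0.17, and Tnfrsf1a at -0.30 and 0.21. A second probe gave 0.49 and -0.28 for Traf2, again of opposite sign, and -0.44 and -0.37 for Traf3, 0.95 and 0.58 for Tnfrsf1a, and -0.35 and -0.13 for Tnfrsf21, without a change of sign. The 0 h value of Traf1 was at 0.00, within rounding, when arrays were scaled by the median or corrected with normexp.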

How the results depend on the processing

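Of 80 values of the counts of members under another setting, 65 stayed within 1.5 times the reported count and 15 did not. For members higher with LPS in wild-type cells (reported 11), the count was 17 with no background filter. For members lower with LPS (reported 0), it was 2 in wild-type cells with quantile normalization or the deposited value table, 1 with normexp correction or the percentile over spots, and 3 in each genotype at 1.5-fold. At 0 h the genotype count of higher members (reported 1) was 3 with no filter, 0 with the stricter filter, under which Tnfrsf25 was not measured, and 7 at 1.5-fold, and of lower members (reported 0) 2 with no filter and 3 at 1.5-fold. At 3 h the count of higher members (reported 4) was 2 in the deposited table, where 28 members were compared and both of those called at 2-fold in the reported analysis kept the call, and 10 at 1.5-fold. Responses 2-fold apart between genotypes (reported 0) were 5 with no filter. No called value of a named member reversed. Small differences changed sign under some setting for Tnfrsf1a, Tnfrsf18 and Traf6 (LPS, wild-type), where Tnfsf13b reached 0.00, Tnfrsf10b (LPS, LysM-St18flox), Tnfrsf1a, Tnfrsf21, Traf3, Traf1 and Tnfsf13b (genotype, 0 h, the last 2 to 0.00 after rounding), and Tnfrsf9, Tnfrsf14 and Tnfrsf26 (genotype, 3 h). Scaling by the median moved the median over all genes by 0.19 in the LysM-St18flox LPS response and by -0.13 in the 0 h genotype difference, and quantile normalization moved it by -0.11 in the former. The causes of these moves were not tested. No paired analysis was possible because each group had 1 array, and for the same reason no array could be left out. Dim probes limit the values of genes near background, such as Tnfsf15 and Tnfrsf25 at 0 h. The number of arrays, 4, limits the precision throughout.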
